A study of Arabidopsis thaliana with 24 samples.

Results

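The comparison described here asks which transcripts respond to nitrate differently in roots of the double mutant nlp6nlp7 than in the reference line Col-0. For each probe set, the change from 0 min to 35 min after nitrate in Col-0 was subtracted from the same change in nlp6nlp7, and the result is called the response difference below. It rests on 12 of the 24 Affymetrix ATH1 arrays of the series, 3 per group, and was tested for all 22714 probe sets that are not controls. Of these, 13490 match 1 gene, 503 match several and 8721 match none in the tables used here.

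The series holds Arabidopsis thaliana roots of 4 genotypes, Col-0, nlp6, nlp7 and nlp6nlp7, at both times. Per the labels, all seedlings had spent 9 days with 12.5 mM ammonium succinate as nitrogen source, the last hours at pH 5.5, so the 0 min groups are ammonium-grown roots before induction. The 35 min groups had received 25 mM KNO3 at pH 5.5. Each of the 3 biological replicates of a group pooled about 200 seedlings from 3 boxes. The labels give each genotype by its name alone, so the alleles and the number of independent lines behind each are not given in the sources used here. A control with potassium but no nitrate is not among the groups, and nitrate, potassium, handling and elapsed time therefore cannot be told apart in a response.

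NIN-like proteins (NLPs) are transcription factors that bind nitrate-responsive DNA elements and switch on primary nitrate-response genes within minutes of nitrate supply. NLP7 is retained in the nucleus when nitrate is present, and NLP6 is its close paralog. In roots the early response covers nitrate uptake and reduction, the supply of reductant and carbon skeletons, and feedback repressors of the HHO (NIGT1) group. Of 12 listed genes of nitrate uptake and transport 1, NRT2.5, has a named probe set in these tables, of 17 listed genes of nitrate reduction and ammonium assimilation none has, and neither have NLP6 and NLP7, so the mutated genes could not be checked by name here.

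The deposited intensities had been scaled to a common level, and medians of the 12 arrays lay between 171 and 196. Replicates of a group correlated at 0.9876 to 0.992 across probe sets, and no pair of arrays was identical. The root hair expansin genes EXPA7 and EXPA18, 2 measured of 16 root markers, summed to an intensity of 1099 to 1258 in Col-0 and 1334 to 1563 in nlp6nlp7 at 0 min. At 35 min the sums were 864 to 1136 and 1249 to 1402, so the mutant arrays lay above the Col-0 arrays at both times. Shoot markers, 4 measured of 8, summed to 294 to 498 over the 12 arrays. RCA, the Rubisco activase gene, held the largest part of that sum, at 206 to 300. The part of tissue composition in the results below was not tested, and in whole roots fewer cells of a type and less RNA per cell cannot be told apart.

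Most called response differences belonged to transcripts that were induced in Col-0 and had a lower response in nlp6nlp7. No test compared induced with lowered transcripts. In all, 120 probe sets had a response difference at an adjusted p under 0.05 in limma (0.528% of those tested), 88 with a lower value in nlp6nlp7 (0.387%) and 32 with a higher value (0.141%). Values are log2 of the intensity plus 26 and errors are standard errors of the fit, with 3 arrays per group throughout. The median response difference over all probe sets was -0.01, against -1.14 for the 88 and 0.94 for the 32, groups that were chosen by this difference. At an unadjusted p under 0.05 there were 1842 probe sets (8.11%). The count of 120 was 278 with array weights, 70 or 75 when one array was left out, replicate 2 of nlp6nlp7 at 0 min or replicate 2 of Col-0 at 35 min (55 and 58 of them lower), and 49 when each named gene had 1 probe set and unnamed ones were left out.

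**Figure D1:**
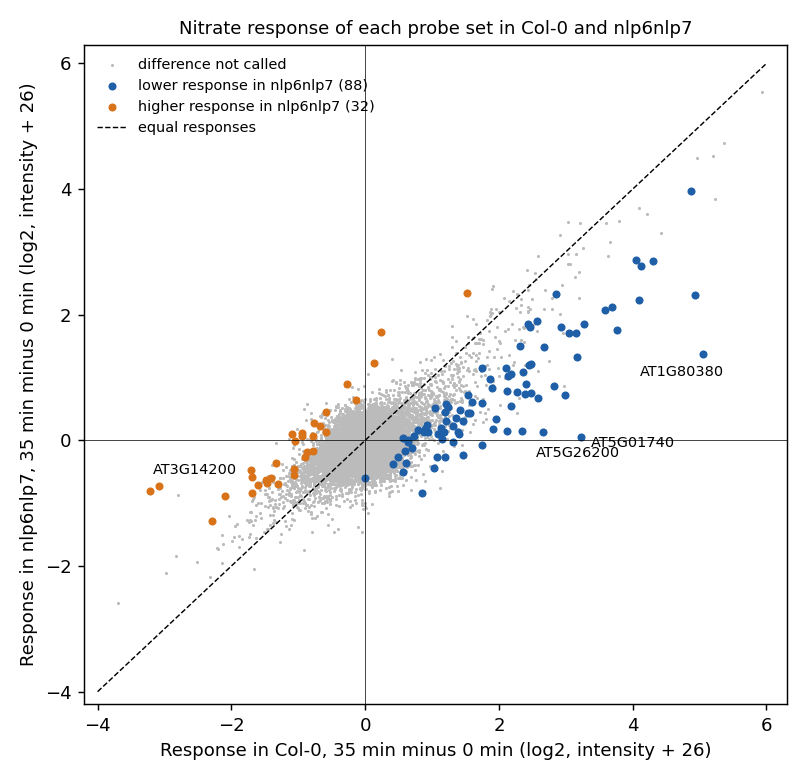
Change from 0 to 35 min in Col-0 (horizontal) and nlp6nlp7 (vertical) for every probe set, on the log2 scale of intensity plus 26. The 88 lower probe sets (blue) lie below the dashed line of equal responses, mostly to the right of 0, and the 32 higher ones (orange) lie above it, mostly to the left of 0.

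Of the 88 probe sets with a lower response, 87 rose in Col-0, where 4.65% of all probe sets rose. In nlp6nlp7, 45 of those 87 still rose (2.41% of all probe sets rose there), 40 had no called change and 2 fell. The median share of the Col-0 response left in nlp6nlp7, on the log2 scale, was 28.9% over the 87, with quartiles of 8.66% and 49.0%. The Col-0 and nlp6nlp7 responses make up the difference by which the 88 were chosen. These counts and shares are therefore shaped by that choice and are no separate support. At least a 2-fold gap between the responses, on intensity plus 26, was found for 53 of the 88. The only one with no called change in Col-0 was AT3G56880, singled out after its values were seen. Its Col-0 arrays read 1316, 1415 and 1249 at 0 min and 1388, 1430 and 1177 at 35 min, and its nlp6nlp7 arrays fell from 1288, 1257 and 1200 to 815, 828 and 790 (response difference -0.61 ± 0.13, limma adjusted p = 0.043).

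The widest gap among named genes was that of AT1G80380 (GLYK), the gene of glycerate kinase, which closes the photorespiratory cycle by phosphorylating glycerate. Its intensities in Col-0 were 150, 145 and 168 at 0 min and 5964, 5319 and 6675 at 35 min. In nlp6nlp7 they were 277, 182 and 302 at 0 min and 548, 782 and 746 at 35 min. All arrays of the mutant after nitrate lay far below those of Col-0, while before nitrate they lay above them. The rise was 33.2-fold in Col-0 and 2.59-fold in nlp6nlp7 on intensity plus 26, and the response difference was -3.68 ± 0.29 (limma adjusted p = 5.3e-07).

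Genes of transport were represented by AT5G26200, AT5G52050 and AT1G59740. For genes known here by locus number alone, the family given is general background and does not come from the tables. AT5G26200, of the mitochondrial carrier family, had 3, 1 and 7 in Col-0 at 0 min and 133, 153 and 203 at 35 min. In nlp6nlp7 it had 5, 3 and 3 before nitrate and 6, 5 and 9 after it. Of these 4 groups only Col-0 after nitrate stood clear of the floor of the arrays, and the nlp6 arrays after nitrate read 114, 122 and 180 (response difference -2.52 ± 0.20, limma adjusted p = 5.3e-07). With a pseudocount of 3 or 103 in place of 26 its difference was -4.19 or -1.27.

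AT5G52050 (DTX50), a MATE efflux carrier gene, went from 10, 12 and 8 to 251, 418 and 250 in Col-0. In nlp6nlp7 it went from 16, 12 and 8 to 53, 90 and 68. The groups did not overlap after nitrate, and the mutant still rose by 1.33 ± 0.25 (response difference -1.84 ± 0.36, limma adjusted p = 0.017, not called in 6 of 24 alternatives). AT1G59740 (NPF4.3), of the nitrate and peptide transporter family, went from 157, 165 and 137 to 718, 928 and 627 in Col-0. In nlp6nlp7 it went from 157, 170 and 162 to 319, 319 and 268. Levels before nitrate overlapped between genotypes and those after it did not (response difference -1.32 ± 0.25, limma adjusted p = 0.016, not called in 3 of 25 alternatives).

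AT3G25790 (HHO1) encodes a GARP family repressor that is itself induced by nitrate. Its intensities were 9, 19 and 31 rising to 112, 163 and 177 in Col-0, and 6, 36 and 25 against 32, 28 and 39 in nlp6nlp7. The mutant arrays at both times overlapped each other and lay below every Col-0 array after nitrate (response difference -1.62 ± 0.32, limma adjusted p = 0.017). This call was lost in 8 of 24 alternatives, and the difference was -2.12 and -0.92 with pseudocounts of 3 and 103.

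**Figure D2:**
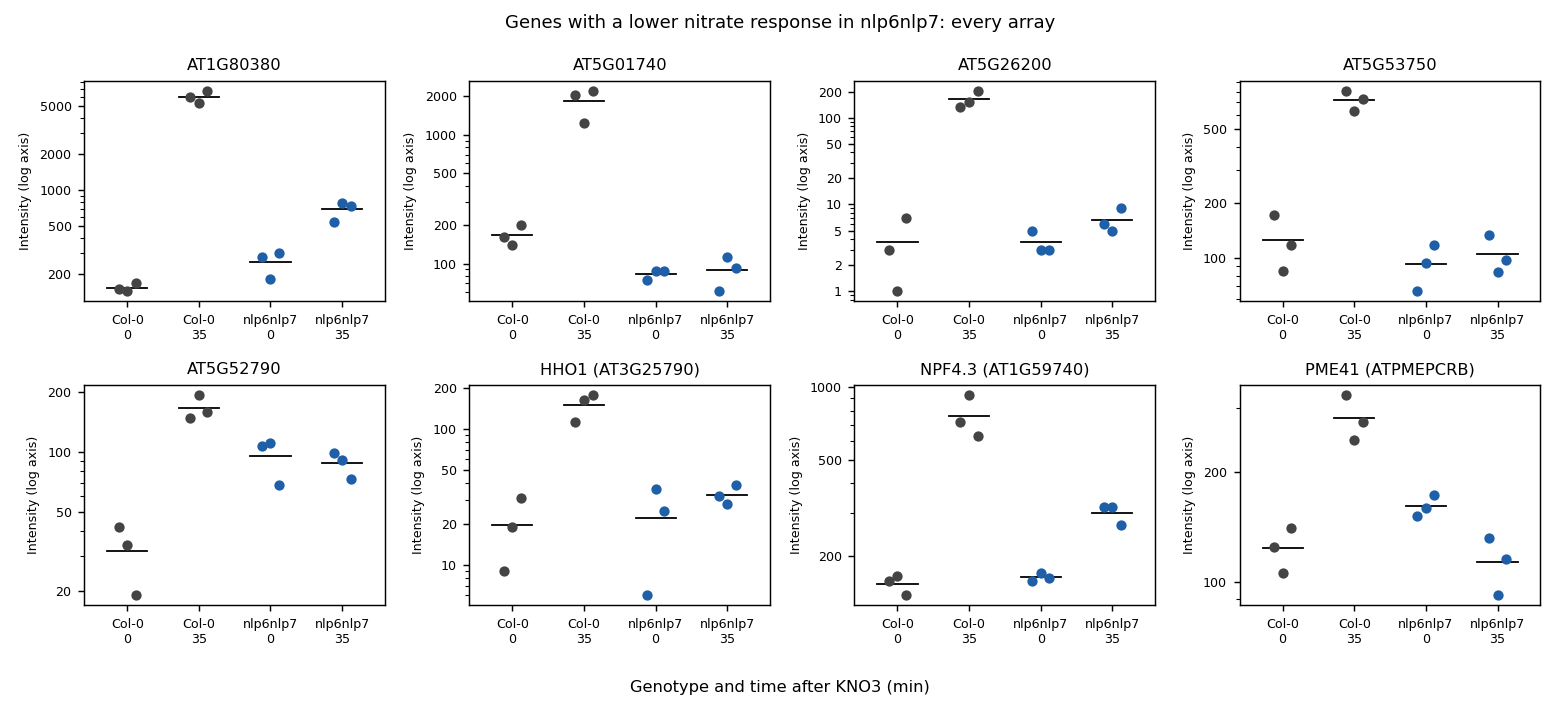
Deposited intensity (log axis) of 8 genes with a lower response, in the 3 arrays (points, left to right replicates 1 to 3) of Col-0 (grey) and nlp6nlp7 (blue) at 0 and 35 min, with the mean of each group as a bar. In every panel the Col-0 arrays at 35 min lie above all arrays of the other 3 groups.

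Genes related to these in role are given next; with 0.528% of all probe sets called, a lack of calls in short lists is no result about them. HHO2 went from 226, 247 and 251 to 1044, 1080 and 1021 in Col-0 and from 211, 205 and 202 to 934, 954 and 918 in nlp6nlp7, a difference of 0.04 with an unadjusted 95% interval of -0.20 to 0.29. HHO3 had a difference of -0.37 (interval -0.66 to -0.08, limma adjusted p = 0.45). Of 6 measured nitrate-linked regulators 1, HHO1, was called, and HHO5 (0.37), HHO6 (0.25) and NRG2 (0.31) had no called difference; the median of the 6 was 0.15. Of 6 measured genes for reductant and carbon supply 1, GLYK, was called. PGD3, a 6-phosphogluconate dehydrogenase gene of the NADPH-yielding pentose phosphate pathway, had a difference of -0.07 (interval -0.44 to 0.29), and PGD1 one of -0.18 (interval -0.46 to 0.09). PGM, a phosphoglycerate mutase gene of the same list, had -0.67 (interval -1.10 to -0.24, limma adjusted p = 0.25). PGD2 and cICDH, neither of which was called as responding in either genotype, had -0.11 and 0.07, and the median of the 6 was -0.15.

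AT5G01740, one of the more strongly induced genes in Col-0, had no called response in nlp6nlp7. Its Col-0 arrays read 162, 139 and 198 at 0 min and 2034, 1240 and 2183 at 35 min, and its nlp6nlp7 arrays 75, 87 and 87, then 61, 113 and 93. The mutant arrays before and after nitrate overlapped and all lay below those of Col-0 at either time. The response was 3.23 ± 0.25 in Col-0 and 0.05 ± 0.25 in nlp6nlp7 (response difference -3.18 ± 0.35, limma adjusted p = 5.3e-05).

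A pair of genes for CBS domain proteins, a fold that often binds adenosine nucleotides, also had no called response in nlp6nlp7. AT5G53750 went from 172, 85 and 117 to 807, 627 and 729 in Col-0, and from 66, 94 and 117 to 133, 84 and 98 in nlp6nlp7 (response difference -2.19 ± 0.36, limma adjusted p = 0.0037). AT5G52790 went from 42, 34 and 19 to 147, 192 and 159 in Col-0, and from 107, 111 and 68 to 99, 91 and 73 in nlp6nlp7 (response difference -1.83 ± 0.31, limma adjusted p = 0.0042). In the latter gene the mutant stood between both Col-0 levels at either time, with a level difference from Col-0 of 1.07 ± 0.22 before nitrate and -0.76 ± 0.22 after it, both called. Its response difference was -2.43 and -1.05 with pseudocounts of 3 and 103. A further CBS domain gene, AT3G52950, singled out after its values were seen, kept a called rise of 0.59 in nlp6nlp7 against 1.20 in Col-0.

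Neither ATPMEPCRB, AT1G72220 nor AT4G25620 had a called response in nlp6nlp7. ATPMEPCRB (PME41), a pectin methylesterase gene, had 125, 106 and 141 at 0 min and 325, 245 and 274 at 35 min in Col-0, and 152, 160 and 173, then 132, 92 and 116, in nlp6nlp7. All mutant arrays after nitrate lay below all mutant arrays before it, although the response of -0.44 ± 0.18 was not called (limma adjusted p = 0.2). The response difference was -1.47 ± 0.25 (limma adjusted p = 0.0045). AT1G72220, of the ATL family of RING finger ubiquitin ligases, had responses of 1.32 in Col-0 and -0.02 in nlp6nlp7 (difference -1.34 ± 0.27, limma adjusted p = 0.023, not called in 10 of 25 alternatives). AT4G25620 had 1.39 and 0.14 (difference -1.25 ± 0.23).

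The other 9 of the 20 named genes with the lowest differences, all still called as rising in nlp6nlp7, kept 33.6% to 70.8% of the Col-0 response. AT5G54170, a START domain family gene, rose from 243, 225 and 207 to 4540, 6120 and 4301 in Col-0 and from 233, 205 and 205 to 1535, 1774 and 1816 in nlp6nlp7. Its levels before nitrate overlapped, and after nitrate the mutant lay below Col-0 on every array (difference -1.46 ± 0.26, limma adjusted p = 0.0081). AT5G28610 (-1.51), AT1G49000 (-1.51), AT1G73920 (-1.50), AT5G19970 (-1.34), AT5G59930 (-1.25) and AT1G19380 (-1.16) had adjusted p of 0.012 or less in limma, and AT1G49000 was not called in 2 of 24 alternatives. AT1G16170 (-1.20) and AT1G49500 (-1.18) were near the threshold, at adjusted p = 0.048 and 0.031 in limma, and were not called in 18 and 10 of 25 alternatives.

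Smaller gaps reached genes with assigned symbols, singled out after their values were seen. FMO (AT1G12200), a flavin monooxygenase gene, rose from 1333, 1297 and 1261 to 3162, 2967 and 3184 in Col-0 and from 1485, 1573 and 1680 to 2197, 2262 and 2431 in nlp6nlp7 (difference -0.71 ± 0.11, limma adjusted p = 0.0028). The kinase genes PTI1-4 and ATMRK1 had responses of 0.70 and 0.92 in Col-0, with -0.12 and 0.25, neither called, in nlp6nlp7. TBL16, of the trichome birefringence-like family that acts on cell wall acetylation, had 0.64 in Col-0 and 0.00 in nlp6nlp7 (difference -0.64 ± 0.12, limma adjusted p = 0.016). Further mitochondrial carrier family genes were AT5G48970, with 1.35 in Col-0 and 0.36 in nlp6nlp7, and AT5G15640, with 0.88 and 0.13. The strongest induction kept within the 88 was that of AT2G48080, which rose from 186, 163 and 209 to 6085, 5820 and 6603 in Col-0 and from 97, 102 and 110 to 1905, 1925 and 2186 in nlp6nlp7 (difference -0.90 ± 0.13, limma adjusted p = 0.0014).

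Of the 88, 42 matched 1 gene and the others none. The widest gaps among the unnamed were those of 252367_at (-2.61 ± 0.32) and 258629_at (-2.26 ± 0.24). Both probe sets that rose in Col-0 and fell in nlp6nlp7, 251745_at and 264952_at, were unnamed and are picked out here for that pattern. The first went from 366, 476 and 393 to 764, 755 and 766 in Col-0, and from 687, 758 and 724 to 331, 460 and 396 in nlp6nlp7. In this probe set the mutant before nitrate read close to Col-0 after nitrate, and the mutant after nitrate close to Col-0 before it (difference -1.69, limma adjusted p = 4.1e-05).

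Of the 32 probe sets with a higher value in nlp6nlp7, 27 fell in Col-0, where 5.5% of all probe sets fell; this count was 13 to 26 with single arrays left out. In nlp6nlp7 13 of the 27 still fell (3% of all probe sets fell there) and 14 had no called change. Another 4 had no called change in Col-0 and rose in nlp6nlp7. The last, 258920_at, rose in both, by 1.53 in Col-0 and 2.35 in nlp6nlp7. These counts, too, describe a set chosen by the difference of the same responses. The count of 32 was 95 with array weights and 15 without replicate 2 of nlp6nlp7 at 0 min, and 17 to 19 without any of 6 other arrays: replicate 2 of Col-0 or 3 of nlp6nlp7 at 0 min, and replicates 1 or 2 of Col-0 or 1 or 3 of nlp6nlp7 at 35 min.

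AT3G14200, of the DnaJ chaperone family, had the largest difference among named genes. It fell from 422, 380 and 363 to 7, 68 and 12 in Col-0. In nlp6nlp7 it had 308, 203 and 262 at 0 min and 200, 100 and 144 at 35 min. After nitrate all mutant arrays lay above all Col-0 arrays, and within the mutant every array after nitrate lay below every array before it. The response was -3.08 ± 0.28 in Col-0 and -0.73 ± 0.28, not called, in nlp6nlp7 (difference 2.35 ± 0.40, limma adjusted p = 0.0048). With pseudocounts of 3 and 103 the difference was 3.33 and 1.39, and the call was lost with only the arrays compared.

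AT2G19310, an HSP20-like gene, fell from 699, 714 and 708 to 129, 142 and 166 in Col-0 and from 392, 426 and 416 to 213, 191 and 231 in nlp6nlp7. The mutant started lower and ended higher, with no overlap at either time (difference 1.22 ± 0.15, limma adjusted p = 0.00028). AT1G53180 fell from 1255, 1425 and 1225 to 380, 364 and 410 in Col-0 and from 1033, 977 and 982 to 683, 635 and 665 in nlp6nlp7, with the same order of groups (difference 1.12 ± 0.16, limma adjusted p = 0.00089). AT3G26510, a gene for a PB1 domain protein, fell by 1.68 in Col-0 and by 0.84 in nlp6nlp7.

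A weaker fall in nlp6nlp7 was also called for AT4G23870 (difference 0.78), which was not called in 15 of 25 alternatives. AT5G25280 (0.97) and AT1G11700 (1.02) fell in Col-0 and had no called change in nlp6nlp7, and were not called in 3 of 25 and 6 of 24 alternatives. Outside the naming rule, AT1G67360 (LDAP1), which coats lipid droplets, fell from 1260, 1351 and 1490 to 621, 651 and 654 in Col-0 and from 1334, 1326 and 1353 to 909, 906 and 894 in nlp6nlp7 (difference 0.50 ± 0.10, limma adjusted p = 0.027). Both genotypes fell, and the mutant arrays after nitrate all lay above those of Col-0.

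The 4 probe sets that rose in nlp6nlp7 with no called change in Col-0 were AT2G47560, AT3G13175, 258570_at and 245549_at. In the single mutants AT2G47560 also had called rises, of 0.91 in nlp6 and 0.68 in nlp7, while AT3G13175 had none. AT2G47560, of the ATL family of RING finger ubiquitin ligases, had 398, 371 and 430 before and 438, 422 and 584 after nitrate in Col-0. In nlp6nlp7 it had 153, 145 and 213 before and 559, 552 and 764 after. The mutant lay well below Col-0 before nitrate, and after nitrate the genotypes overlapped (difference 1.49 ± 0.26, limma adjusted p = 0.0081). AT3G13175 went from 246, 269 and 255 to 219, 200 and 204 in Col-0 and from 191, 152 and 148 to 267, 371 and 343 in nlp6nlp7, so the order of the genotypes turned round (difference 1.17 ± 0.23, limma adjusted p = 0.016, not called in 7 of 25 alternatives). The unnamed 258133_at had the largest difference of the 32, 2.41 ± 0.19, followed among the unnamed by 261663_at (1.23 ± 0.14).

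**Figure D3:**
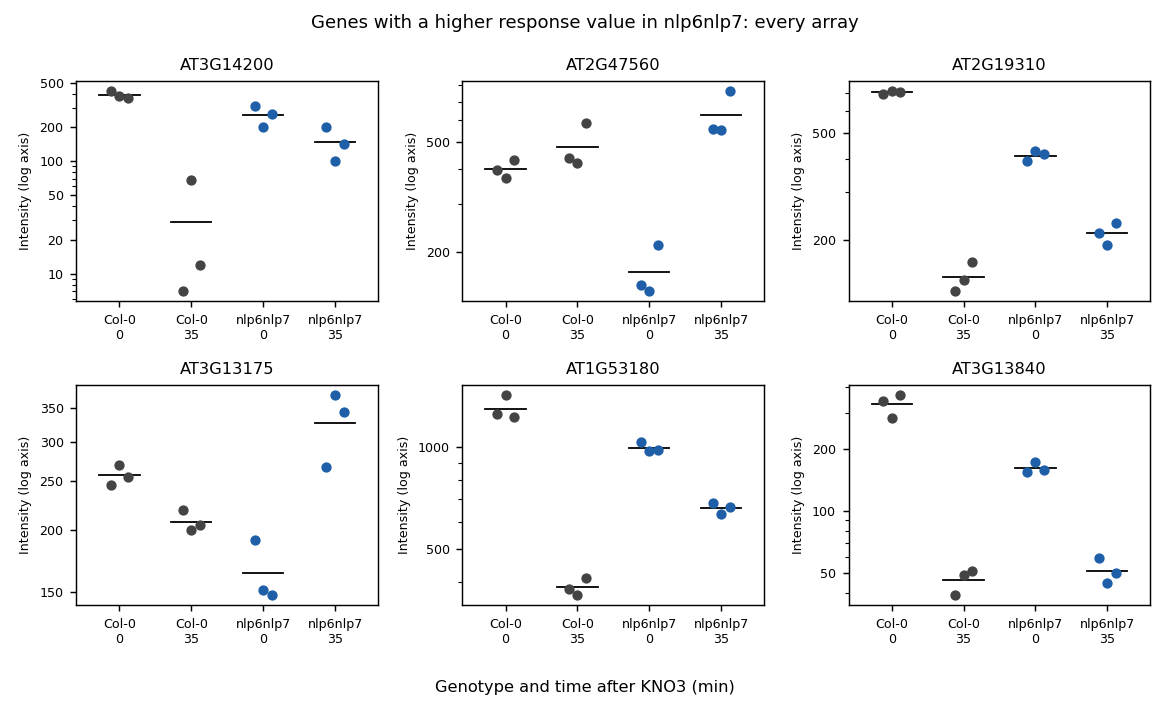
Deposited intensity (log axis) of 6 genes with a higher response value in nlp6nlp7, in the 3 arrays (points) of Col-0 (grey) and nlp6nlp7 (blue) at 0 and 35 min, with group means as bars. AT2G47560 and AT3G13840 differ between genotypes at 0 min, with overlapping arrays at 35 min, and AT3G14200 differs mainly at 35 min.

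AT4G08420 and AT1G76210 are called at intensities near the floor. AT1G76210 had 27, 45 and 27, then 3, 3 and 1 in Col-0, and lay between 2 and 4 on all arrays of nlp6nlp7, where a further fall could not be measured. AT4G08420 had 23, 9 and 28, then 3, 6 and 4 in Col-0, and 6 on each mutant array before nitrate with 12, 27 and 16 after it. Both had differences of 1.03, both were not called in 13 of 23 alternatives, and with pseudocounts of 3 and 103 the values were 2.74 and 0.35 for AT4G08420 and 2.67 and 0.36 for AT1G76210.

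A response difference equals the genotype difference at 35 min minus that at 0 min, and these values share their arrays with it. Set out this way, the 88 lower responses lay mainly in the level reached after nitrate. At 35 min 84 of the 88 were lower in nlp6nlp7 than in Col-0, as were 2.67% of all probe sets. At 0 min 14 were higher in nlp6nlp7 (3.92% of all) and 2, AT2G48080 and AT3G18560, were lower (2.5% of all). The count of 14 was 6, 7 or 8 without replicate 2, 3 or 1 of Col-0 at 0 min and 6 or 4 without replicate 2 or 3 of nlp6nlp7 at 0 min, and that of 84 dropped to 54 or 53 on leaving out replicate 2 of nlp6nlp7 at 0 min or of Col-0 at 35 min. The level was called different at 35 min alone for 72, at both times for 12 and at 0 min alone for 4.

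The 4 called at 0 min alone were CSLA03, AT1G55390, 254331_s_at and 247213_at, picked out here for that pattern. CSLA03, which encodes a glucomannan synthase of the cellulose synthase-like family, had 401, 379 and 352 in Col-0 and 937, 931 and 909 in nlp6nlp7 at 0 min. At 35 min it had 1264, 1337 and 1009 in Col-0 and 1472, 1395 and 1416 in nlp6nlp7. The mutant was higher at both times by array order, though the difference at 35 min was not called, and its smaller rise (0.61 against 1.60) started from a higher level. AT1G55390 was higher in nlp6nlp7 by 0.90 at 0 min and had -0.21, not called, at 35 min.

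The 32 higher responses differed in level at either time. At 35 min 23 were higher in nlp6nlp7 (3.55% of all probe sets) and at 0 min 16 were lower (2.5% of all). With single arrays left out the count of 23 lay between 11 and 23 and that of 16 between 6 and 15, and 8 of the 12 arrays moved each by over 1.5 times. The level differed at 35 min alone for 15, at 0 min alone for 8, at both for 8 and at neither for 1, AT1G71970, singled out for that. The named genes with the difference at 0 min alone were AT2G47560, AT3G13840, AT1G11700, AT1G76210 and AT1G56220. AT3G13840, a GRAS family transcription regulator gene, had 343, 282 and 364 in Col-0 and 154, 172 and 158 in nlp6nlp7 before nitrate. After nitrate it had 39, 49 and 51 against 59, 45 and 50, which overlap, so the genotypes differed by call before nitrate alone (difference 1.02 ± 0.19, limma adjusted p = 0.011). No test compared the 32 with the 88 in this respect.

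**Figure D4:**
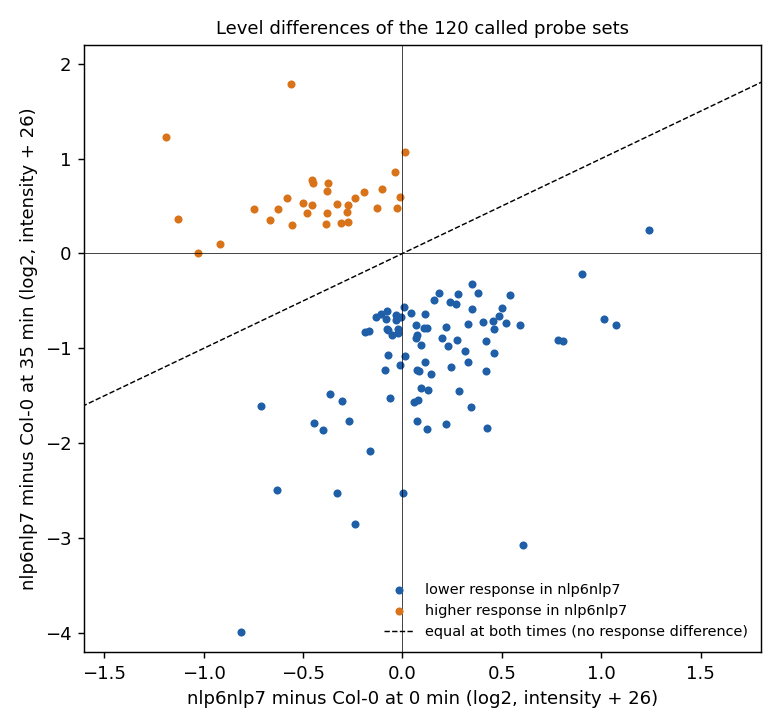
Difference between nlp6nlp7 and Col-0 at 0 min (horizontal) and at 35 min (vertical), log2 of intensity plus 26, for the 120 probe sets with a called response difference, whose vertical distance from the dashed line is that difference. The 88 lower ones (blue) spread downward around a horizontal value near 0, and the 32 higher ones (orange) lie to the left of or close to 0.

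Responses in the single mutants are set beside these values; they were compared with the same Col-0 arrays. Over the 88 lower probe sets Col-0 had a median response of 1.81, followed by nlp6 at 1.44, nlp7 at 0.81 and nlp6nlp7 at 0.52. Over the 32 higher ones the medians were -1.05, -0.81, -0.47 and -0.23. The sets were chosen by the contrast of Col-0 with nlp6nlp7, so the gap between those genotypes is fixed by the choice. Such a choice also tends to place genotypes not used in it between them. The order of these medians is therefore partly built in and is no separate result. Single genes also lay outside the range of Col-0 and nlp6nlp7, as AT5G28610 did in nlp6, at 4.46 against 3.59 in Col-0.

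Single genes differed in where nlp7 stood. For GLYK the rises were 5.06 for Col-0, 4.89 for nlp6, 2.47 for nlp7 and 1.37 for nlp6nlp7. AT5G01740 rose by 3.23, 2.42 and 1.98 in the first 3 and had 0.05 in nlp6nlp7, and its nlp7 arrays read 91, 67 and 121 before and 362, 446 and 514 after nitrate. AT5G53750, by contrast, had -0.14 in nlp7 beside 0.15 in nlp6nlp7 and 1.98 in nlp6. Like it, ATPMEPCRB (0.12), AT1G72220 (0.32) and AT5G52790 (0.62) had no called response in nlp7. AT4G25620 (0.63) and AT5G26200 (0.80) had one there. HHO1 had 2.13 in nlp6, 1.15 in nlp7 and 0.34 in nlp6nlp7.

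The response of nlp6nlp7 was also tested against that of nlp7, and limma called 0 of 22714 probe sets (0%), with 782 at an unadjusted p under 0.05 (3.44%). AT5G01740 had a difference of -1.93 ± 0.35 (unadjusted 95% interval -2.66 to -1.20, limma adjusted p = 0.18), GLYK one of -1.10 (-1.70 to -0.50) and AT5G53750 one of 0.29 (-0.45 to 1.04). The unadjusted intervals of AT5G01740 and GLYK lie wholly below 0, though neither gene was called, and that of AT5G53750 spans 0. These genes were picked by a difference that uses the same nlp6nlp7 arrays. The absence of calls does not show equal responses. No simulation was run for this contrast. Leaving out the dimmest 50% of probe sets, a pseudocount of 103 or a trended variance each gave 2 calls in place of 0.

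**Figure D5:**
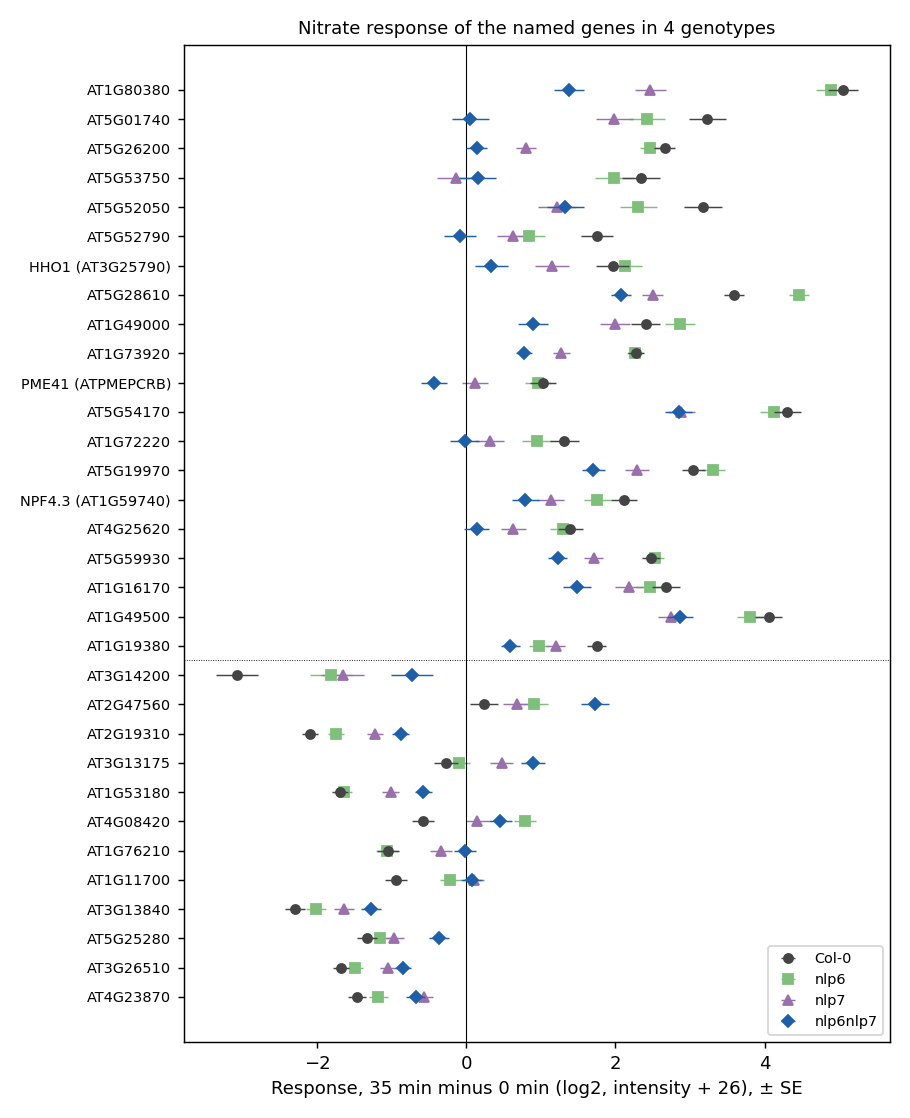
Response from 0 to 35 min (log2 of intensity plus 26, horizontal, ± SE, n = 3 arrays per group) of the 20 named genes with the lowest response differences (above the dotted line) and the 12 with the highest (below it) in Col-0, nlp6, nlp7 and nlp6nlp7. The nlp7 points mostly lie between those of Col-0 and nlp6nlp7, with AT5G53750 and AT1G49500 among the exceptions, and the nlp6 points lie on either side of Col-0.

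The strongest Col-0 inductions without a called difference, chosen for that lack and so no measure of the response left, are given as values. PGM went from 261, 302 and 300 to 11189, 11016 and 12410 in Col-0 and from 283, 300 and 265 to 6399, 7052 and 8002 in nlp6nlp7. Levels before nitrate overlapped and those after it did not, with the difference of -0.67 given above. The kinase gene WNK7 rose by 3.66 and 3.17 (difference -0.49), AT5G10210 by 5.37 and 4.73 (-0.64), the protein phosphatase gene AT4G32950 by 4.42 and 3.29 (-1.13) and AT3G07350 by 5.23 and 3.85 (-1.39, limma adjusted p = 0.059). All 5 had a negative difference that was not called. The level at 35 min was called lower in nlp6nlp7 for AT3G07350 (-1.47), AT4G32950 (-1.44) and PGM (-0.69). It was not called for AT5G10210 (-0.54) and WNK7 (-0.47).

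The deepest falls without a called difference were those of CYP718, AT4G17670, AT5G67430, AT1G64590 and ARL. ARL, an ARGOS-like gene of organ growth, fell by 2.32 in Col-0 and 2.18 in nlp6nlp7, a difference of 0.15 (unadjusted 95% interval -0.39 to 0.68). Its levels were lower in nlp6nlp7 at both times, with 1501, 929 and 1269 against 2375, 2573 and 2213 at 0 min. AT1G64590 had a difference of 0.58, CYP718 of 0.86 and AT4G17670 of 0.98. AT5G67430 fell from 169, 272 and 250 to 7, 10 and 14 in Col-0, and had 164, 168 and 187, then 71, 98 and 80 in nlp6nlp7 (difference 1.93 ± 0.44, limma adjusted p = 0.053).

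Gene lists of the nitrate response and of large families held 2 called genes, GLYK and HHO1, both lower, beside 0.528% of all probe sets called. The locus lists named 167 genes, of which 31 were measured by name, and the family lists held 172 measured genes. Of 47 UDP-glycosyltransferases, 23 cytochrome P450s, 20 beta-glucosidases, 15 tetraspanins, 14 SWEET sugar transporters, 14 expansins, 11 tau glutathione transferases, 9 xyloglucan transferases, 7 Aux/IAA genes and 6 WRKY factors, limma called none at the adjusted threshold, and 16 of the 172 had an unadjusted p under 0.05 (8.11% of all probe sets did). Their median differences ran from -0.22 for the beta-glucosidases to 0.09 for the xyloglucan transferases, beside -0.01 for all probe sets. The lowest and highest single values were -1.27 for BGLU32 and 1.41 for CYP71B35. The nitrate transporter gene NRT2.5 had 0.03 and the glutaredoxin gene ROXY2 -0.20, and neither was called. The reference genes UBC21, SAND and TIP41 had 0.08, 0.12 and -0.04.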

How the data were processed

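The deposited values are one intensity per probe set and array, whole numbers from 1 to 36178. The authors had scaled each array, since a mean trimmed by 2% at either end came to 500.1 to 500.5 on all of them. The probe summarisation software is not stated in the sources used here. Deposited intensities were taken to log2 after adding 26, their 20th percentile. The 62 control probe sets were left out and no dim ones. A group-means model of all 24 arrays (8 groups of 3, 16 residual degrees of freedom) was fitted with limma 3.58.1 in R 4.3.3, with two-sided contrasts and Benjamini-Hochberg adjustment over 22714 probe sets. Intervals are unadjusted. Genes were named by the probe table and TAIR10.1 symbols, without coordinates. Named genes were the 20 lowest and 12 highest called differences with 1 gene, the 5 highest and 5 lowest Col-0 responses without a called difference, members of 35 lists (26 with a measured gene), and 2 unnamed probe sets per direction; others are said to be singled out. Members, lists and rules were chosen with earlier results of these data known. Data were simulated from the group means and spread of the fit, with independent noise and no shared replicate effect. There the test recovered 17%, 55.8% and 93.3% of 1.5-, 2- and 4-fold response differences, and 4.33% of its calls were false. Real arrays may share such an effect, so these rates need not hold for them. Same-numbered samples deviated together with correlations of -0.113 to 0.204 (3 of 18 over 0.1), and within a genotype of 0.035 to 0.204 (3 of 6 over 0.1). Different-numbered samples within a genotype had correlations of -0.157 to 0.072. The labels do not say that a number marks a shared batch, and not every same-numbered pair exceeded 0.1, so numbers were not taken as pairs. Within a genotype all same-numbered correlations were positive, so a pairing there is not excluded. Counts with such a block are given at the end. Python 3.11.15 served for tables. Arrays give no read depth, and their number limits the precision.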

Additional observations from a re-analysis of the deposited data

Results flagged for a closer look

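The response to nitrate differed between nlp6nlp7 and Col-0 for 120 probe sets by the limma contrast of the response difference itself, and these are the probe sets described above. One of them, AT4G08420, also had a called response difference between the single mutant nlp6 and Col-0, of 1.37 on the log2 scale of intensity plus 26. Its intensities lie near the floor of the arrays, and its difference depends on the pseudocount as given above. Between nlp7 and Col-0 the response difference was called, in the same direction, for 41 of the 88 lower and 8 of the 32 higher probe sets. GLYK was among them (-2.59) and AT5G01740 was not (-1.25). For nlp6 these counts were 0 and 1. Both contrasts share the Col-0 arrays by which the sets were chosen, so the counts are no separate support. The shares called over all probe sets are not given here. Groups of 3 arrays were not examined for single outlying samples.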

How the results depend on the processing

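No called response difference among the 120 changed sign under the 25 alternatives that tested it, and 54 of the 120, 43 of them lower, were called under every alternative that tested them. With array weights the counts were 278 in all, 183 lower and 95 higher, in place of 120, 88 and 32. With 1 probe set per gene, which tests fewer probe sets, they were 49, 34 and 15. Leaving out the dimmest 50% and a trended variance each gave 53 higher. With single arrays left out the counts lay between 70 and 114 in all, between 55 and 82 lower and between 15 and 32 higher; the lowest of each came without replicate 2 of nlp6nlp7 at 0 min. The cause of the moves other than fewer samples or probe sets was not tested. The test against nlp7 gave 2 calls with the dimmest 50% left out, a pseudocount of 103 or a trended variance, and 0 with any single array left out. With replicate number as a block, which the labels do not state as a pairing, there were 129 calls against Col-0 and 1 against nlp7, and 115 of the 129 were among the 120. The block within genotype gave 110 calls against Col-0, 85 of them among the 120. Over all alternatives, 17 to 79 lower probe sets rose in Col-0 with no call in nlp6nlp7 (40 above), and 4 to 51 had a higher level at 0 min (14 above). Of the higher ones, 13 to 77 fell in Col-0 (27 above), 9 to 59 had a higher level at 35 min (23 above) and 6 to 54 a lower level at 0 min (16 above). Dim probe sets limit the sizes, as the pseudocount values above show.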
